A study of Mus musculus with 6 samples.

Results

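Cholesterol and fatty acid synthesis was followed through 32 genes in regulatory T cells (Tregs) of tumour-draining lymph nodes from IL-33-deficient and wild-type mice. The genes were chosen by name for their place in the pathways: 18 make sterols, 5 control the SREBP transcription factors that switch those genes on, 4 sense, move or export cholesterol, and 5 make or alter fatty acids. All 32 were found among the 37187 gene identifiers of the deposited count table, and all 32 had enough reads to be among the 13626 genes tested. Msmo1 was listed in the deposited symbol tables under its older name Sc4mol.

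The study holds 2 groups of 3 bulk RNA libraries. The KO group (replicates 4, 5 and 6) was labelled il33-/- in C57BL6 background, and the WT group (replicates 1, 2 and 3) was labelled C57BL6. Mice of both groups had received 300000 cells of the B16.F10 melanoma line under the skin, and on day 14 Tregs were sorted from the draining nodes by CD4, CD25 and GITR. The cell type label adds Foxp3. Age, sex, the deleted exons of Il33, any pooling of mice and whether each library came from its own animal are not stated in the sources used here, so p-values speak only of the spread among these 6 libraries. The comparison asks which transcripts of tumour-exposed Tregs differ where the alarmin IL-33 is missing.

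Cells make cholesterol from acetyl-CoA through the mevalonate pathway, and the enzymes of both sterol and fatty acid synthesis are switched on by SREBP proteins. SREBPs are held in the endoplasmic reticulum with their escort Scap by the Insig proteins when sterols are plentiful, and are released to the nucleus when sterols run low. Excess sterol acts in the other direction through oxysterol-sensing LXR receptors, which raise the exporters Abca1 and Abcg1, and dividing T cells draw on lipid synthesis to build membrane.

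Total counts ran from 18071928 to 21165063 per library, and the mean count of a member ran from 73.5 for Idi1 to 6043 for Srebf2. Foxp3, the defining Treg factor, had 856.9, 789.7 and 848.6 CPM (read counts scaled to library size) in KO replicates 4, 5 and 6, against 729.8, 802.9 and 719.2 CPM in WT replicates 1, 2 and 3. Il33 had 3, 8 and 2 counts in the KO libraries, against 7, 0 and 9 counts in the WT libraries, too few to check the labels, and the 0 of WT replicate 2 allows up to 0.155 CPM. B cell markers were uneven: 18 of 19 were in the table, with edgeR adjusted p-values from 0.1403 to 0.277 and a median log2 fold change of -1.92, and their summed level was 1366 to 1697 CPM in KO and 2257 to 3686 CPM in WT. A large part of that sum was Ighm, at 923.7 to 1118 CPM in KO and 1061 to 1447 CPM in WT. Its log2 fold change was only -0.32, so the sum shows the difference of the other markers less than their median does. WT replicate 2 was the lowest WT library on that sum, and 558.3 of its CPM came from Cd72 alone. Cd72 had 41.2 to 44.9 CPM in KO and 73.0 and 86.1 CPM in WT replicates 3 and 1. The 9 T cell and Treg markers summed to 5371 to 5539 CPM in KO and 4502 to 5175 CPM in WT. Macrophage and monocyte markers summed to 38.2 to 61.8 CPM in KO and 40.6 to 56.4 CPM in WT. Dendritic cell markers summed to 15.4 to 19.3 CPM in KO and 21.5 to 24.6 CPM in WT. CD8 T and NK cell markers summed to 30.7 to 41.2 CPM in KO and 42.7 to 47.9 CPM in WT. Both of these sums were lower in every KO library than in every WT library. Stroma, endothelium and melanoma markers summed to 278.5 to 289.0 CPM in KO and 233.6 to 249.4 CPM in WT. Most of that sum was Pecam1 alone, at 241.7 to 252.5 CPM in KO and 206.4 to 226.2 CPM in WT. Dct and Tyrp1 were at 0 in all 6 libraries. Single markers passed edgeR's test as higher in KO, namely Ctla4 (adjusted p = 0.00220), Cd68 (0.0104), Pmel (0.0376) and Pecam1 (0.0427), and the dendritic cell marker Siglech passed as lower (0.0313), and their part in the results was not tested.

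In KO Tregs, 2 of the 32 genes were higher and none was lower. Insig1, which encodes the anchor that holds SREBPs back and is itself an SREBP target gene, was 1.48-fold higher, and Scd2, a desaturase that puts a double bond into saturated fatty acids, was 1.19-fold higher. The other 30 genes, among them all 18 enzymes of sterol synthesis, both SREBP genes and the fatty acid synthase gene Fasn, did not pass, and 1 of them that was lower in KO, Fasn, had an unadjusted p under 0.05. A gene passed at an adjusted p under 0.05 in edgeR's quasi-likelihood test over all 13626 genes, of which 6.50% passed, 3.68% as higher and 2.83% as lower in KO. Against that background, 2 called genes of 32 is close to the share of all genes. Without the adjustment, 5 of the 32 genes had p under 0.05, where 21.8% of all genes did. KO and WT values did not overlap in 5 of the 32 genes, 3 higher and 2 lower in KO, and in 26.3% of all genes.

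The promoters of both kinds of gene are shown so that the letters named for the pathway's regulators can be seen, in Insig1, which passed, and in Hmgcs1, a textbook SREBP target that did not. RefSeq windows on GRCm38.p6, from 250 bases before to 50 bases after an annotated start, were given for 26 of the 32 genes, in 34 windows, and those of Abcg1, Fdft1, Fdps, Scd2, Sqle and Stard4 were not used here. The 300 bases of Insig1 are chr5:28071162-28071461 on the plus strand, and those of Hmgcs1 are chr13:119690101-119690400 on the plus strand. Capitals mark letters that match a searched motif on either strand, and no matches overlap each other in these windows.
Insig1: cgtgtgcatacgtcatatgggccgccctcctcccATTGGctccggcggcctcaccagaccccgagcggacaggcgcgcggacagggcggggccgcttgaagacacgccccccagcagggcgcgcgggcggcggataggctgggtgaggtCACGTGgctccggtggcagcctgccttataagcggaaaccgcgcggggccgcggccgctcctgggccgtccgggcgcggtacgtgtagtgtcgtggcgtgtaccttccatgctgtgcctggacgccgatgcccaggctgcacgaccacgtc
Hmgcs1: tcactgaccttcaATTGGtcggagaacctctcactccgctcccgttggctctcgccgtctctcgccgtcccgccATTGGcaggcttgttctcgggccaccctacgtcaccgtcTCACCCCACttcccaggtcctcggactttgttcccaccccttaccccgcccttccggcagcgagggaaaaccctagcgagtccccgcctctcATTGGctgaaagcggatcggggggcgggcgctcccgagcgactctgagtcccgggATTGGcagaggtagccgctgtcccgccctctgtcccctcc
The motifs were the core of the sterol response element TCACNCCAC, the NF-Y box CCAAT, the E-box CACGTG and the LXR direct repeat, and the E-box was added after the sequences had been seen. The sterol element core was found in 1 of the 26 genes, Hmgcs1, at positions -137 to -129 from the start, and in 1.24% of all 32851 promoter windows. CCAAT was found in 20 of the 26 genes, in 21 of their 34 windows, and in 37.4% of all windows. Insig1 had CCAAT at -216 to -212 and CACGTG at -101 to -96, a motif held by 6 of the 26 genes, in 7 of their 34 windows, and by 7.15% of all windows. The form of the LXR repeat that was searched, whose letters are not given here, matched in none of the 26 genes. It matched in only 5 of all windows, or 0.0152%. Forms of the repeat that differ in some letters were not counted, so the 0 does not mean that these windows lack such a repeat. These matches describe letters in a short window, and a missing match says nothing about whether a factor acts on the gene.

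Insig1 (ENSMUSG00000045294, GRCm38 chromosome 5, 28071363 to 28078662, plus strand) had the largest fold change of the members called. It was at 58.0, 58.2 and 52.1 CPM in KO replicates 4, 5 and 6, against 34.0, 38.6 and 41.3 CPM in WT replicates 1, 2 and 3. Every KO library was above every WT library, with no overlap. The means were 56.1 ± 3.48 CPM in KO and 38.0 ± 3.69 CPM in WT (SD, n = 3 each), from 1094 to 1222 counts per KO library and 716 to 746 counts per WT library. The log2 fold change was 0.56 (SE 0.08), a fold of 1.48 with a 95% interval from 1.31 to 1.67, and edgeR's adjusted p was 0.00145. Per length, Insig1 stood at 20.7 ± 1.36 FPKM in KO and 14.0 ± 1.36 FPKM in WT. Across leaving out each library in turn, its log2 fold change ran from 0.49 to 0.63 and edgeR's adjusted p from 0.000662 to 0.0106. Without WT replicates 1 and 3, the libraries highest in B cell markers, its log2 fold change was 0.54. That fit leaves WT replicate 2 as the lone WT library, so it has no WT spread to test against. With a B cell marker score as a term of the fit the log2 fold change was 0.55, and the edgeR adjusted p of 0.239 no longer passed. In that fit 39 of all genes passed, against 886 without the score. The score ran from 4.32 to 5.07 in KO and from 5.47 to 6.91 in WT, with no overlap. Such a fit can hardly separate the score from the group, so its values are not estimates freed of B cell signal. Over all 17 alternatives the adjusted p ran from 8.55e-11 to 0.239.

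None of the other 4 genes of SREBP control passed in edgeR's test, also without adjustment. Srebf2, which encodes the SREBP that favours sterol genes, was at 314.2, 280.2 and 279.5 CPM in KO replicates 4, 5 and 6, against 308.4, 306.0 and 306.0 CPM in WT replicates 1, 2 and 3. KO replicate 4 was the highest of all libraries and the other KO libraries the lowest, so the groups overlapped. Its log2 fold change was -0.07 (95% interval -0.20 to 0.05, edgeR adjusted p = 0.499). Srebf1, the SREBP gene that favours fatty acid synthesis, was at 176.3, 165.8 and 155.2 CPM in KO and at 166.3, 160.2 and 168.3 CPM in WT, a log2 fold change of 0.01 (95% interval -0.12 to 0.14, edgeR adjusted p = 0.964). Scap, the sterol-sensing escort, had a log2 fold change of -0.02 (95% interval -0.14 to 0.10). Insig2, the paralog of Insig1 that is less dependent on SREBP, ran from 20.2 to 22.6 CPM in KO and from 21.1 to 25.0 CPM in WT, a log2 fold change of -0.10 (95% interval -0.30 to 0.11, edgeR adjusted p = 0.634). The median log2 fold change of these 5 genes was -0.02, with 1 of 5 called. Srebf1 overlaps Rai1 on the opposite strand, and the sources used here do not say whether counting used strand.

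None of the 18 sterol synthesis genes passed, and their log2 fold changes lay from -0.25 for Tm7sf2 to 0.37 for Idi1. Their median was 0.05, against 0.00 over all genes tested, with 11 positive and 7 negative. The median size without regard to sign was 0.10, against 0.12 over all genes. For 15 of the 18, the 95% interval of the log2 fold change lay within -0.5 and 0.5, and the 3 with wider intervals were Idi1, Tm7sf2 and Hsd17b7. The smallest edgeR adjusted p was 0.175, for Cyp51, the 1 gene of the 18 with an unadjusted p under 0.05, and none of the 18 passed in any of 17 alternatives, DESeq2 and limma-voom among them.

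At the head of the mevalonate pathway, Hmgcs1, which makes HMG-CoA, was at 50.4, 49.7 and 44.9 CPM in KO replicates 4, 5 and 6, against 43.0, 51.4 and 44.9 CPM in WT replicates 1, 2 and 3. WT replicate 2 was highest and WT replicate 1 lowest, with the KO libraries between them. The log2 fold change was 0.06 (SE 0.08, 95% interval -0.11 to 0.23, edgeR adjusted p = 0.737). Acat2, the cytosolic thiolase that joins acetyl-CoA units, ran from 10.2 to 11.4 CPM in KO and from 11.2 to 11.6 CPM in WT. The mevalonate kinases Mvk and Pmvk had log2 fold changes of 0.11 and 0.03, and the decarboxylase Mvd had -0.17 (95% interval -0.38 to 0.03). Idi1, the isomerase of isopentenyl diphosphate, was the member with the fewest reads, at 5.39, 4.24 and 2.67 CPM in KO, against 2.23, 3.48 and 3.82 CPM in WT. Its highest and 2nd highest values were both in KO, but the groups overlapped and the 95% interval of its log2 fold change reached from -0.23 to 0.98. Fdps, which makes farnesyl diphosphate, had a log2 fold change of -0.01, with 19.0 to 20.7 CPM in KO and 17.8 to 22.3 CPM in WT.

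The genes from squalene onwards did not pass either. Sqle, the epoxidase that commits squalene to sterols, was at 29.2, 26.3 and 21.5 CPM in KO replicates 4, 5 and 6, against 23.0, 29.1 and 22.2 CPM in WT replicates 1, 2 and 3. The groups overlapped almost wholly, and the log2 fold change was 0.05 (95% interval -0.24 to 0.34, edgeR adjusted p = 0.884). Fdft1, squalene synthase, had a log2 fold change of 0.13 and overlaps Ctsb on the opposite strand. Lss, which closes the sterol rings, was at 30.0 CPM in KO replicate 4 and at 20.8 and 21.3 CPM in KO replicates 5 and 6, a spread that took in the whole WT range of 23.8 to 28.9 CPM. Cyp51, the lanosterol demethylase, was at 52.7, 59.8 and 49.0 CPM in KO, against 44.4, 48.1 and 48.9 CPM in WT. All KO values of Cyp51 were above all WT values, by a narrow margin between KO replicate 6 and WT replicate 3. Its log2 fold change was 0.19 (SE 0.08, 95% interval 0.02 to 0.36), which did not pass in the edgeR test over all genes or in any of the 17 alternatives. Cyp51 overlaps Akap9 on the opposite strand.

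The later enzymes, which trim and reduce the sterol skeleton, lay on both sides of zero. Tm7sf2, a sterol C14-reductase, had a log2 fold change of -0.25 (95% interval -0.55 to 0.06), with 9.48 to 12.8 CPM in KO and 12.2 to 15.7 CPM in WT. It overlaps Vps51 on the same strand, so their reads can be confused. The C4-demethylation genes Msmo1, Nsdhl and Hsd17b7 had log2 fold changes of 0.00, 0.16 and 0.11. Hsd17b7 was spread widely within KO, at 14.2, 11.2 and 7.62 CPM in KO replicates 4, 5 and 6, against 10.4, 9.41 and 10.8 CPM in WT replicates 1, 2 and 3. Ebp, the sterol isomerase, had -0.04, and Sc5d and Dhcr7, which introduce and remove ring double bonds at the end of the pathway, had 0.08 and 0.10 on the log2 scale. Summed per length over the 18 genes, the FPKM were 163.1, 162.9 and 159.3 in KO replicates 4, 5 and 6, against 156.4, 165.8 and 155.3 in WT replicates 1, 2 and 3. WT replicate 2 had the highest sum and the other WT libraries the lowest.

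**Figure D1:**
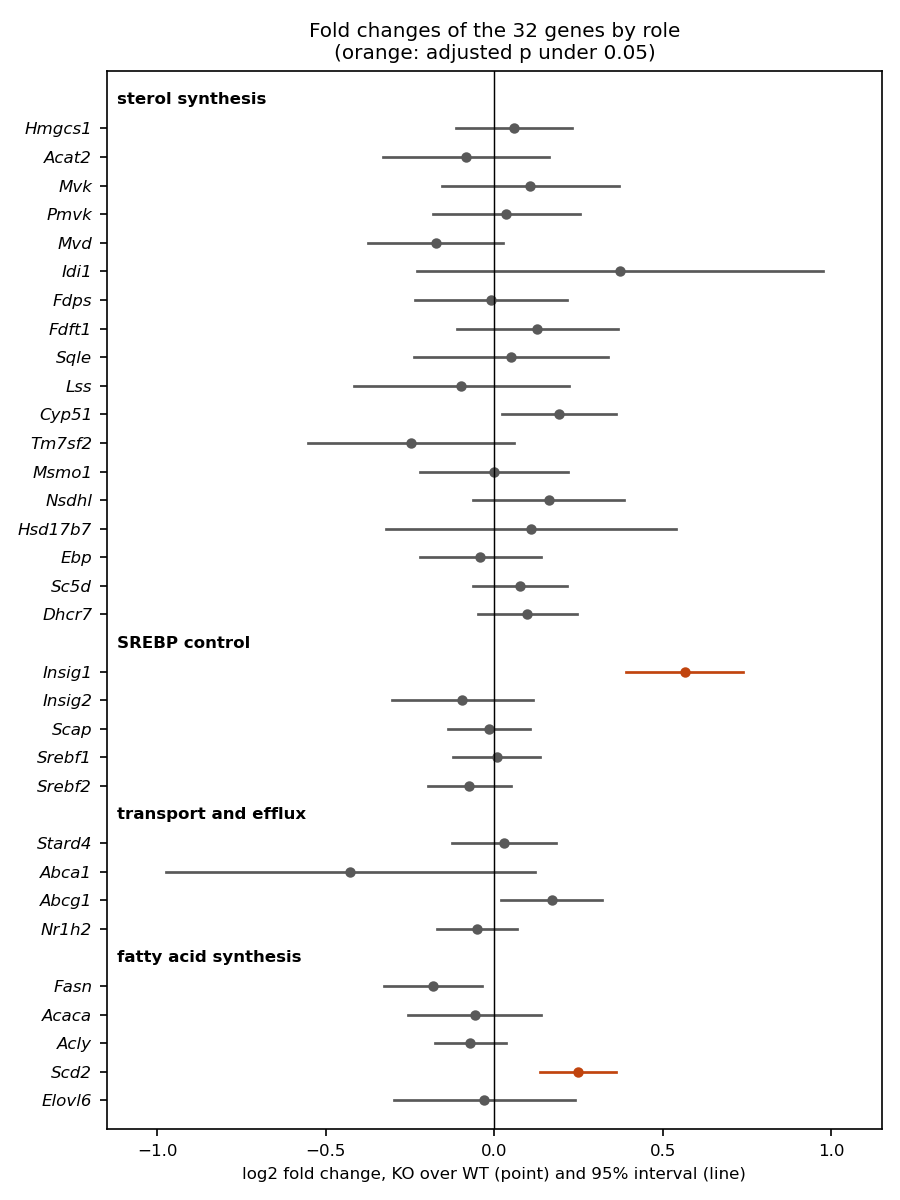
Log2 fold change of KO over WT (horizontal axis) for each of the 32 genes, grouped by role, with points for the edgeR estimate and lines for its 95% interval. Insig1 at 0.56 and Scd2 at 0.25, in orange, passed at an adjusted p under 0.05, and the 18 sterol synthesis genes lie from -0.25 to 0.37 on both sides of zero.

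Scd2 (ENSMUSG00000025203, GRCm38 chromosome 19, 44293674 to 44306864, plus strand) was the second gene that rose. It was at 264.9, 250.8 and 249.3 CPM in KO replicates 4, 5 and 6, against 218.2, 214.1 and 212.2 CPM in WT replicates 1, 2 and 3. The lowest KO library was above the highest WT library, and each group was tight. The means were 255.0 ± 8.63 CPM in KO and 214.8 ± 3.08 CPM in WT (SD, n = 3 each). That is a log2 fold change of 0.25 (SE 0.05), or a fold of 1.19 with a 95% interval from 1.10 to 1.28, and edgeR's adjusted p was 0.0137. Scd2 has 3 close paralogs beside it, and reads shared among them could be split by the counting. Those 3 genes summed to 40.9, 58.2 and 28.7 CPM in KO, against 215.0, 59.2 and 172.2 CPM in WT, highest in the 2 WT libraries with the most B cell marker signal, and their part in the Scd2 count was not tested. Scd2 lies 14.3 Mb from Il33 on the same chromosome, and 1 of the 22 other tested genes within 1 Mb of it passed. Leaving out WT replicate 3 moved the edgeR adjusted p to 0.0789, with a log2 fold change of 0.24, and no other single library did so. With the B cell score in the fit the log2 fold change was 0.26 and the edgeR adjusted p 0.481. Without WT replicates 1 and 3, which leaves WT replicate 2 as the lone WT library, the log2 fold change was 0.25. Over all 17 alternatives the adjusted p ran from 0.00112 to 0.481.

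The other 4 fatty acid genes had log2 fold changes from -0.18 to -0.03, and none passed. Fasn, the synthase that builds palmitate, was at 244.6, 228.3 and 200.05 CPM in KO replicates 4, 5 and 6, against 251.4, 259.2 and 252.7 CPM in WT replicates 1, 2 and 3. Every KO value of Fasn was below every WT value, with KO replicate 6 the farthest. The log2 fold change was -0.18 (SE 0.07, 95% interval -0.33 to -0.04) and edgeR's adjusted p was 0.138. It passed without a filter on low counts, at an edgeR adjusted p of 0.0429, and without KO replicate 4, at 0.0428, within a range of 0.0428 to 0.793 over the 17 alternatives. Acly, which splits citrate to give cytosolic acetyl-CoA for both pathways, was at 264.5, 260.7 and 259.0 CPM in KO, against 278.1, 274.5 and 271.2 CPM in WT. Its groups did not overlap either, but the difference was small, a log2 fold change of -0.07 (95% interval -0.18 to 0.03, edgeR adjusted p = 0.446). Acaca, the acetyl-CoA carboxylase that makes malonyl-CoA, had a log2 fold change of -0.06 (95% interval -0.26 to 0.14). Elovl6, which lengthens palmitate, was at 21.8, 27.7 and 21.8 CPM in KO, against 20.6, 25.2 and 27.1 CPM in WT, with overlapping groups and a log2 fold change of -0.03 (95% interval -0.30 to 0.24, edgeR adjusted p = 0.927). The median of the 5 fatty acid genes was -0.06, with Scd2 the only positive value.

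**Figure D2:**
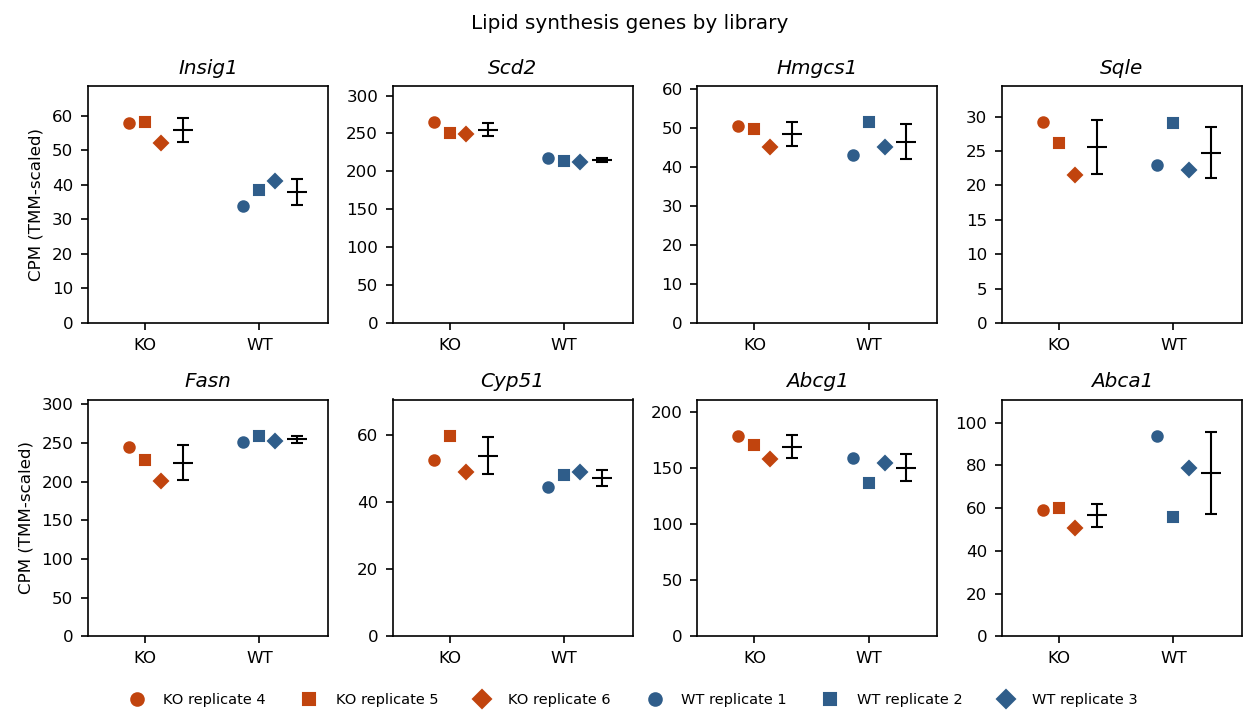
CPM on linear axes from 0 for 8 of the genes, with 1 point per library, KO at the left and WT at the right of each panel, and bars for the mean and SD of 3 libraries. The KO libraries of Insig1 (52.1 to 58.2 CPM) and Scd2 (249.3 to 264.9 CPM) lie above all WT libraries, Fasn lies below, Cyp51 is above by a narrow margin, and Hmgcs1, Sqle, Abcg1 and Abca1 overlap.

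Of the genes that sense, move and export cholesterol, none passed in edgeR's test and 1, Abcg1, had an unadjusted p under 0.05. Abcg1, which exports cholesterol to high-density lipoprotein, was at 178.9, 170.2 and 158.0 CPM in KO replicates 4, 5 and 6, against 159.3, 136.4 and 154.8 CPM in WT replicates 1, 2 and 3. WT replicate 2 was the lowest library and WT replicate 1 reached just above KO replicate 6. The log2 fold change was 0.17 (SE 0.07, 95% interval 0.02 to 0.32, edgeR adjusted p = 0.170). Nr1h2, which encodes the LXR receptor of most tissues, had a log2 fold change of -0.05 (95% interval -0.17 to 0.07), and Stard4, a cytosolic sterol carrier, had 0.03 (95% interval -0.13 to 0.18). The median of these 4 genes was -0.01.

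Abca1, which exports cholesterol to lipid-poor apolipoprotein, had a difference whose size depended on which WT libraries were compared. It was at 59.3, 60.1 and 50.6 CPM in KO replicates 4, 5 and 6, against 93.9, 55.8 and 78.9 CPM in WT replicates 1, 2 and 3. WT replicates 1 and 3 stood above all KO libraries, while WT replicate 2 lay among them. The log2 fold change was -0.43 (SE 0.21, 95% interval -0.97 to 0.12) and edgeR's adjusted p was 0.339. The summed B cell markers without Cd72 were 1321, 1654 and 1321 CPM in KO, against 3599, 1698 and 2957 CPM in WT, so the 2 libraries high in Abca1 were also the 2 highest in B cell markers. In bulk RNA, fewer cells of a type and less RNA per cell cannot be told apart. The B cell score was higher in every WT library than in every KO library, so a fit with it can hardly separate score and group. Without WT replicate 2 the log2 fold change of Abca1 was -0.61 and passed at an edgeR adjusted p of 0.000777, and without WT replicates 1 and 3 it was 0.02. With the B cell score in the fit it turned to 0.37 (edgeR adjusted p = 0.367), and over the 17 alternatives the adjusted p ran from 0.000777 to 0.957.

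**Figure D3:**
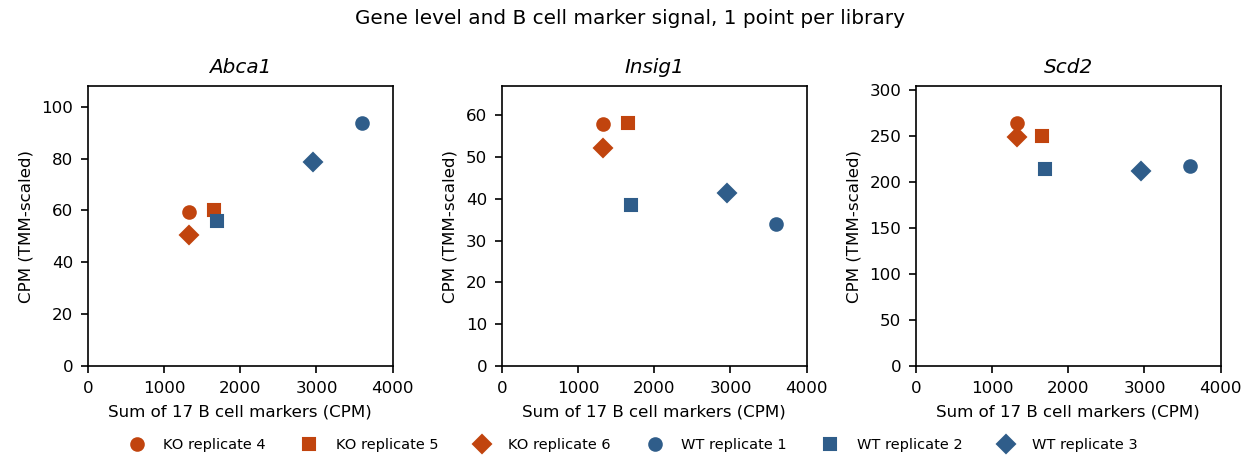
CPM of Abca1, Insig1 and Scd2 (vertical axes, from 0) against the summed CPM of 17 B cell markers (horizontal axis), 1 point per library. Abca1 is highest in WT replicates 1 and 3, which also have the most B cell marker signal. In WT replicate 2, Insig1 and Scd2 were below all KO libraries. Its sum was 1698 CPM, of which Ighm was 1061 CPM, against 1321, 1654 and 1321 CPM in KO replicates 4, 5 and 6. Its mean log2 CPM over the 18 B cell markers, Cd72 among them, was 5.47, above the 4.67, 5.07 and 4.32 of those KO libraries. The part of B cell signal in Insig1 and Scd2 was not tested.

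Most members had close values within each group. The median coefficient of variation over the 32 genes was 6.20% in KO and 7.90% in WT, and it ran from 0.421% for Sc5d to 33.3% for Idi1 in KO. No library was high or low across the whole set. KO replicate 4 had the highest value of the 6 libraries in 10 genes and the lowest in 1, KO replicate 6 had the highest in 4 and the lowest in 9, and WT replicate 1 had the highest in 5 and the lowest in 8. Summed proliferation markers, which cover a process that draws on lipid synthesis, were 761.8, 1263 and 1056 CPM in KO, against 948.4, 1091 and 1051 CPM in WT. KO replicate 4 was the lowest library on those markers, and the part of proliferation in the values of the 32 genes was not tested.

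**Figure D4:**
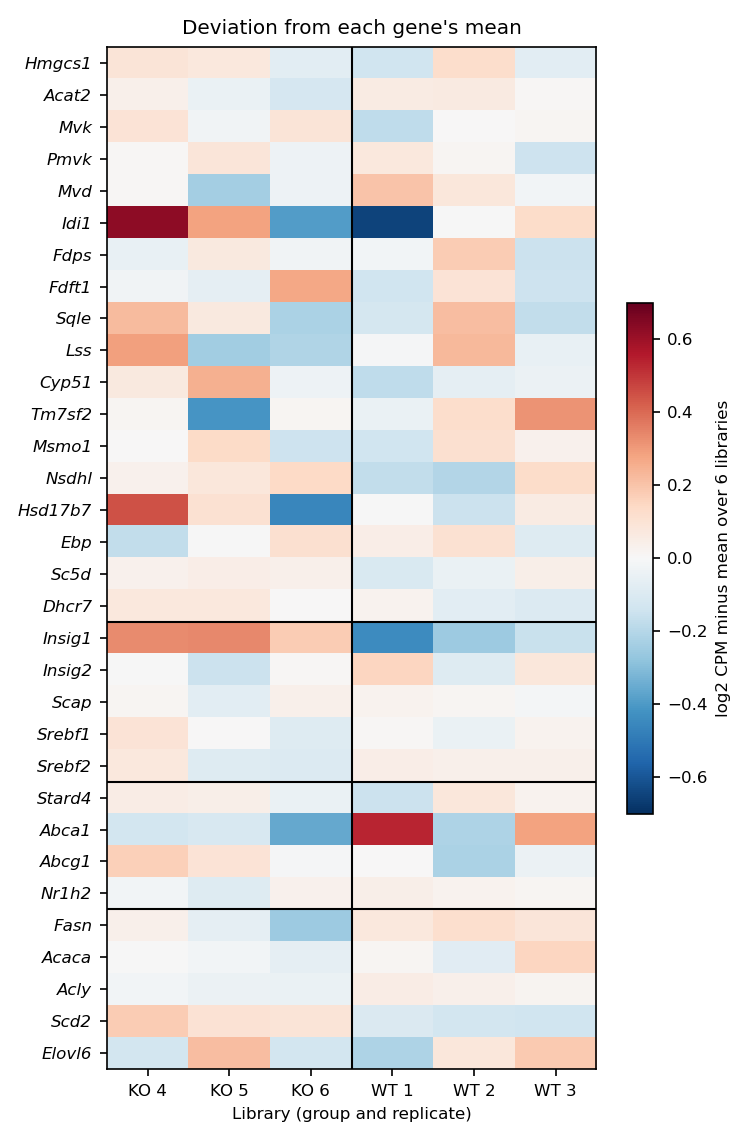
Deviation of log2 CPM from each gene's mean over the 6 libraries, with genes as rows in order of role, KO libraries in the left columns and WT libraries in the right, red for higher and blue for lower. Insig1 and Scd2 change colour between the groups, Abca1 is red in WT replicates 1 and 3, and Idi1 and Hsd17b7 differ more among KO libraries than between groups.

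Per length, levels differed widely among the genes. Srebf2 had the highest level, with a mean of 59.7 FPKM over the 6 libraries, followed by Acly at 50.5, Nr1h2 at 43.5, Scd2 at 42.9, Abcg1 at 39.1 and Srebf1 at 29.2 FPKM. The highest sterol enzyme was Sc5d at 20.4 FPKM, and the 3 lowest levels were those of Acaca at 2.27, Hsd17b7 at 2.07 and Idi1 at 1.03 FPKM. The means spanned 57.7-fold. In that order, 26 of 31 neighbouring pairs had overlapping ranges over the 6 libraries. Ranges do not compare 2 genes within a library, and Hmgcs1, for 1, was above its neighbour Cyp51 in all 6. The order within each library was not counted for the other pairs. Srebf2, Acly, Abcg1, Srebf1 and Dhcr7 were the 5 genes whose range lay wholly above that of the next gene.

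**Figure D5:**
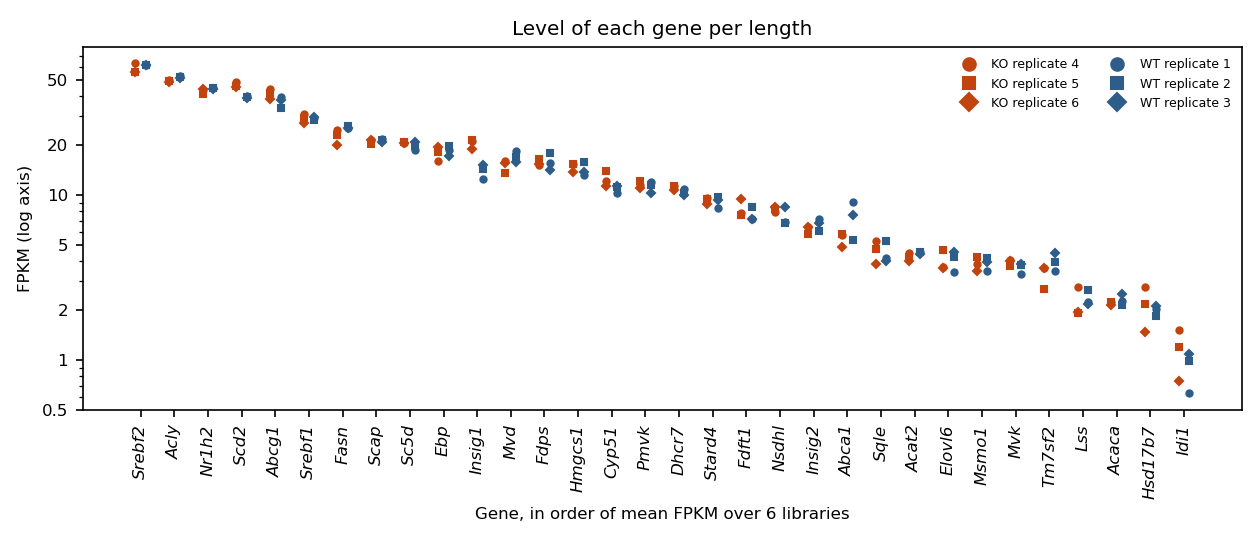
FPKM of each gene in each library on a log axis, genes in falling order of the mean over 6 libraries, KO points left of WT points. Levels run from 59.7 FPKM for Srebf2 to 1.03 FPKM for Idi1, and for Insig1 the KO points (20.7 ± 1.36 FPKM) lie apart from the WT points (14.0 ± 1.36 FPKM, SD, n = 3 each).

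A wider list of 66 genes of sterol, isoprenoid and fatty acid handling, outside the 32, gave 60 genes with enough reads to be tested, and 1 of them passed, as lower in KO, where 2.83% of all genes did. Rxrb, which encodes a retinoid X receptor that pairs with LXR, was at 88.5, 88.5 and 89.6 CPM in KO replicates 4, 5 and 6, against 108.9, 106.6 and 103.3 CPM in WT replicates 1, 2 and 3. All KO libraries were below all WT libraries, with a log2 fold change of -0.26 (SE 0.05) and an edgeR adjusted p of 0.0140. Rxrb no longer passed without KO replicate 5 or WT replicate 1, at edgeR adjusted p-values of 0.0576 and 0.0626. With the B cell score in the fit it did not pass either, at an edgeR adjusted p of 0.498. The adjusted p ran from 0.00282 to 0.498 over the 17 alternatives. Without WT replicates 1 and 3, which leaves 1 WT library, its log2 fold change was -0.26. The median of the 60 was -0.04 on the log2 scale, and 17 of them had groups that did not overlap, 6 higher and 11 lower in KO, a share close to the 26.3% of all genes. Vldlr, Elovl3, Fads2, Fads3, Me1 and Thrsp had too few reads to be tested.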

How the data were processed

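The members and gene lists were chosen with earlier results of these data known. The build GRCm38 and the tools bcl2fastq, STAR (2.4.2a) and DESeq2 are named in the submitters' processing notes; how reads were counted, with what use of strand and which annotation, is not stated in the sources used here. Raw counts by Ensembl identifier were deposited by the authors. Their deposited normalized counts are a signal: raw counts over a single factor a library, in 99.87% or more of the genes with over 50 counts. Their deposited FPKM were those normalized counts over a single constant a gene, in all 9356 genes compared, within a relative tolerance of 1e-06.

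Symbols and positions came by gene identifier from GENCODE M21, which matched 35412 of 37187. Raw counts were tested in R 4.3.3 with edgeR 4.0.16: filterByExpr by group, TMM factors, a robust quasi-likelihood fit and two-sided test over all 13626 genes, adjusted by Benjamini-Hochberg, at a threshold of 0.05. CPM use the TMM factors, and standard errors were derived from the F statistic. The script was tested on simulated data. No pair of libraries of 1 group agreed within sampling noise: their chi-square per degree of freedom was 5.16 to 14.6. Floors of 3 counts cover counting error only.

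All 32 members are given. Those that passed and 10 with the best known roles have values in every library, and of the wider list those that passed are named; Cyp51, Acly, Idi1, Lss and Hsd17b7 were given in full after their values were seen. The B cell score is the mean log2 CPM of the B cell markers. It was higher in every WT library than in every KO library, so fits with the score can hardly separate it from the group. Alternatives were RLE and upper-quartile factors, no filter, at least 1 CPM in 3 libraries, DESeq2 1.42.0, limma-voom (limma 3.58.1), limma on log2(FPKM + 1) and log2(FPKM + 0.1), each library left out, WT replicates 1 and 3 left out (the lone WT library is then assumed to vary like the KO libraries), and the B cell score as a covariate in edgeR. The score without Cd72 was added after seeing the data.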

Additional observations from a re-analysis of the deposited data

How the results depend on the processing

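No called result changed direction. Of all genes, 886 passed, against 1645 without a filter, 397 and 410 on log2(FPKM + 1) and log2(FPKM + 0.1), 367 (without WT replicate 3) to 1364 (without WT replicate 2) when 1 library was left out, 39 and 73 with the B cell score with and without Cd72, and 282 without WT replicates 1 and 3. Members called higher numbered 2, against 1 to 2 with 1 library left out, 0 and 0 with the 2 scores, and 1 without WT replicates 1 and 3. Members called lower numbered 0, against 1 without a filter (Fasn) and 0 to 1 with 1 library left out (Fasn without KO replicate 4, Abca1 without WT replicate 2). Of the wider list 1 passed, against 2 each with upper-quartile factors, without a filter and with DESeq2, 0 to 3 with 1 library left out, 0 and 0 with the scores, and 0 without WT replicates 1 and 3.

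Median log2 fold changes with the score, with the score without Cd72 and without WT replicates 1 and 3 were -0.071, -0.073 and -0.057 for sterol synthesis (0.05 in the fit of all libraries) and 0.057, 0.045 and 0.049 for SREBP control (-0.02). For transport and efflux they were 0.14 and 0.088 with the scores (-0.01). With 1 library left out they ran from 0.02 to 0.08 for sterol synthesis, -0.04 to 0.01 for SREBP control, -0.04 to 0.02 for transport and efflux and, for fatty acid synthesis (-0.06), -0.070 to 0.0039 (0.0039 without WT replicate 3). The score goes with the group in these libraries, so medians from fits with it cannot be assigned to either. The causes were not tested. Of the members, 16 changed sign, uncalled both times, in at least 1 of 17 alternatives, and 28 passed in none. Insig1 passed in 15 alternatives and Scd2 in 13.

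No paired analysis was possible because KO replicates 4 to 6 and WT replicates 1 to 3 share no replicate numbers. With 3 libraries a group, 27 of 32 members had 95% intervals within -0.5 and 0.5 on the log2 scale. The intervals of Idi1, Tm7sf2, Hsd17b7 and Abca1 did not bound a difference of that size. That of Insig1, which passed, ran from 0.39 to 0.74.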

Other observations

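Apoe, the apolipoprotein that accepts exported cholesterol and an LXR target, was named after its values were seen. It had 28.6, 30.7 and 29.9 CPM in KO replicates 4, 5 and 6, against 65.1, 38.2 and 63.4 CPM in WT replicates 1, 2 and 3, with no overlap. The log2 fold change was -0.90, at an edgeR adjusted p of 0.0897, while DESeq2 gave an adjusted p of 1.29e-07, in a range of 1.29e-07 to 0.926 over the 17 alternatives. WT replicates 1 and 3 were the highest libraries for Apoe, as for Abca1 and for B cell markers. With the B cell score in the fit, the log2 fold change of Apoe was -0.10, and without WT replicate 2 it was -1.11 at an edgeR adjusted p of 2.07e-07.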
